A study of Homo sapiens with 6 samples.

Results

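Genes of the hypoxia response and of glycolysis were compared between U87 MG cells that overexpress GUCY1B3 and control U87 MG cells. The members were the probe sets whose platform symbol was one of 39 listed genes. They comprised the HIF subunits and their prolyl hydroxylases, genes induced by low oxygen, glucose and lactate transporters, and the enzymes and regulators of glycolysis. Of these genes 37 had a probe set with their symbol alone, of 22350 named genes on the array that are not Y-linked, and 36 of the 37 were bright enough to be tested, of 15800 genes tested. The lactate transporters SLC16A1 and SLC16A3 were not analysed here.

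U87 MG is an established human glioblastoma line. The overexpression group comprised 3 arrays of stably transfected U87 MG cells that carry the plasmid pCDNA3.1D/V5-His-TOPO with GUCY1B3, which encodes a subunit of soluble guanylate cyclase, the nitric oxide receptor that makes cGMP. The control group comprised 3 arrays of U87 MG cells, and no vector control is named in the labels. Both groups were grown in DMEM with serum and received no treatment, and an oxygen level is not stated. The labels do not say whether the stable cells were 1 clone or a pool, nor whether replicates were separate cultures, so the p-values reflect array-to-array spread, which can be purely technical. All values are log2 expression values from RMA, which corrects the background, quantile-normalizes the arrays and summarises each probe set. A difference is overexpression minus control on that scale.

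Cells sense oxygen through prolyl hydroxylases, which mark the alpha subunits of hypoxia-inducible factor (HIF) for destruction while oxygen is present. When oxygen is scarce the alpha subunit persists, pairs with ARNT and binds the core motifs ACGTG and GCGTG near its target genes. Many targets move glucose into the cell, run glycolysis or turn pyruvate into lactate, and glioblastoma is known for hypoxic regions and high glycolysis. The regulation acts largely on the protein, which was not measured here.

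Promoter windows from RefSeq (GRCh38.p14), each spanning 250 bases before to 50 after a transcript start, were available for 34 of the 37 genes. The windows below belong to the 4 genes past the threshold with all arrays, followed by EPAS1 and ANGPTL4, which did not pass it with all arrays weighted equally but passed it without control array 3. Each is written 5′ to 3′ along the gene, and capitals mark ACGTG or GCGTG on either strand (as CACGT or CACGC when it lies on the other strand). HK2 has 2 windows, of which the more upstream is shown.
ADM, chr11:10304823-10305122 (plus strand): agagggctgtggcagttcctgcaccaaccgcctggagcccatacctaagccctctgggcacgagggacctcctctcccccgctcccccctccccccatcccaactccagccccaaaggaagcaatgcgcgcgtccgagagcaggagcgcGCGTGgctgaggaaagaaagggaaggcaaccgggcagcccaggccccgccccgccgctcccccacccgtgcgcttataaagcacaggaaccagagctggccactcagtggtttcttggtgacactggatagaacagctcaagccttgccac
HK2, chr2:74833877-74834176 (plus strand): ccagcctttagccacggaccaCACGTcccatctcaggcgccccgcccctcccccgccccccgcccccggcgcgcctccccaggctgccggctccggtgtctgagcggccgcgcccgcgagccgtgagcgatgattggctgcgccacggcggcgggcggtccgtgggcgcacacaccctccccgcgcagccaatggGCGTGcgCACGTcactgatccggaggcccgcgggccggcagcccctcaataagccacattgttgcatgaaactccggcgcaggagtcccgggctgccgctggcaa
PKM, chr15:72231141-72231440 (minus strand): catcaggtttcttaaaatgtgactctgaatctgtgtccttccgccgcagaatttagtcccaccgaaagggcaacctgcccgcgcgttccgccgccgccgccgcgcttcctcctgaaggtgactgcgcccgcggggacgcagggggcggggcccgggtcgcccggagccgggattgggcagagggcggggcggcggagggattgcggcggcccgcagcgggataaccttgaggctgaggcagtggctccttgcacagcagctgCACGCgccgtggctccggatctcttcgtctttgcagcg
PFKL, chr21:44299803-44300102 (plus strand): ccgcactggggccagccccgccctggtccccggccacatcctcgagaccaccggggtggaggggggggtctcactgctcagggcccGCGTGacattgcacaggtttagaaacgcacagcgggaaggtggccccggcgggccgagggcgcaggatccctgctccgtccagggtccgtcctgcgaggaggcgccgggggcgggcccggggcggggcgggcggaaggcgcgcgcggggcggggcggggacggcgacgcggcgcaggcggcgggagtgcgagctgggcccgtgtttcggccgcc
EPAS1, chr2:46297157-46297456 (plus strand): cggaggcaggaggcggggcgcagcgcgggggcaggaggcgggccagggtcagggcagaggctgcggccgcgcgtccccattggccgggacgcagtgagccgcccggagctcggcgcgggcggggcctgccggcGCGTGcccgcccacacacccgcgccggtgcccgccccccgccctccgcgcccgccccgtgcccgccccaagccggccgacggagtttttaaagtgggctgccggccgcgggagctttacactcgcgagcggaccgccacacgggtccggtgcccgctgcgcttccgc
ANGPTL4, chr19:8363905-8364204 (plus strand): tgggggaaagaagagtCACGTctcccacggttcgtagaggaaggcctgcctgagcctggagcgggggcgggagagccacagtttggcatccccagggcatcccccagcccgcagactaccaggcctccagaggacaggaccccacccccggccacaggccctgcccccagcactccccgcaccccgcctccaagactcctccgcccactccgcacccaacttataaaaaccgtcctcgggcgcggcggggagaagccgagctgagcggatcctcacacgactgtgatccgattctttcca
ADM held 1 match at position -101 from the start, PFKL 1 at -164 and PKM 1 at 13. HK2 held 3, at -229, -55 and -48. Over all windows of the 34 genes, 41 of 60 (68.3%) held either motif, against 48.4% of the 35116 windows of all genes. ACGTG alone was present in 38.3% of the members' windows and 21.4% of all windows, and GCGTG alone in 45.0% and 36.5%. ACGTG on both strands overlaps as CACGTG, the E-box that MYC and its antagonist MXI1 also bind, which 13.3% of the members' windows and 7.3% of all windows held. In 3 genes, ARNT, EGLN3 and PGAM1, no window held a match. These shares are descriptions of letters, and base composition was not matched.

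Before the comparison, the labels were checked on the overexpressed gene. GUCY1B3 (probe set GUCY1B1) read 8.10, 8.18 and 8.40 in overexpression cells, against 7.45, 7.70 and 7.49 in control cells, 1.60-fold higher (limma, adjusted p = 0.00432). The groups did not overlap, but an ordinary equal-variance test per gene, without limma's moderation, gave adjusted p = 0.0783. Correlations between arrays over the tested genes lay between 0.982 and 0.997. Control array 3 stood apart from its group, with correlations of 0.989 and 0.987 to control arrays 1 and 2, which correlated at 0.995. Its weight, estimated by limma from the scatter of each array, was the lowest of the 6 at 0.30. Of the cell type markers, VIM and CD44 lay above 10 on every array. The leukocyte marker PTPRC, the epithelial marker EPCAM and the endothelial marker PECAM1 lay below the median of the array on all 6, as did MTAP, which U87 MG has lost. Of 6 glial markers AQP4 alone was too dim to be tested, also lying below the median on all 6 arrays. Of the 7 markers of other cell types, however, 3 lay above the array median on at least 3 of 6 arrays and were tested. GFAP, the defining astrocyte marker, read between 5.60 and 5.89, where the medians lay between 4.97 and 5.03. Among 6 markers of the line 1, NES, was higher in overexpression, among 5 tested glial markers 1, SLC1A3, was higher, and among 3 tested markers of other cell types 0 passed limma's threshold or an ordinary test, 1 having an unadjusted p under 0.05. Of all tested genes 6.39% were higher, and the marker counts are too small to be set apart from that share. CDKN2A, the other gene lost in U87 MG, lay above the array median on at least 3 of 6 arrays and was therefore tested. It did not pass limma's threshold (difference 0.04). A value above the median thus need not mean that a gene is expressed. The part of cell state in the results below was not tested.

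With all arrays, most of these genes did not differ past the threshold. Of 36 tested members 1, the phosphofructokinase PFKL, was higher in overexpression, and 3, adrenomedullin (ADM), hexokinase HK2 and pyruvate kinase PKM, were lower (limma, adjusted p under 0.05 over all tested genes). Across all 15800 genes 6.39% were higher and 4.54% lower, against 2.78% and 8.33% of the members. With each array centred on its median, 719 of all genes were higher and 688 lower, against 1010 and 717 as deposited. The counts are too small to set the members apart from that background. The median difference was -0.05 over the tested members and 0.02 over all tested genes. In 11 of the 36 tested members the overexpression arrays all lay below the control arrays, and in 5 all above, where 12.2% and 17.1% of all genes did so.

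**Figure D1:**
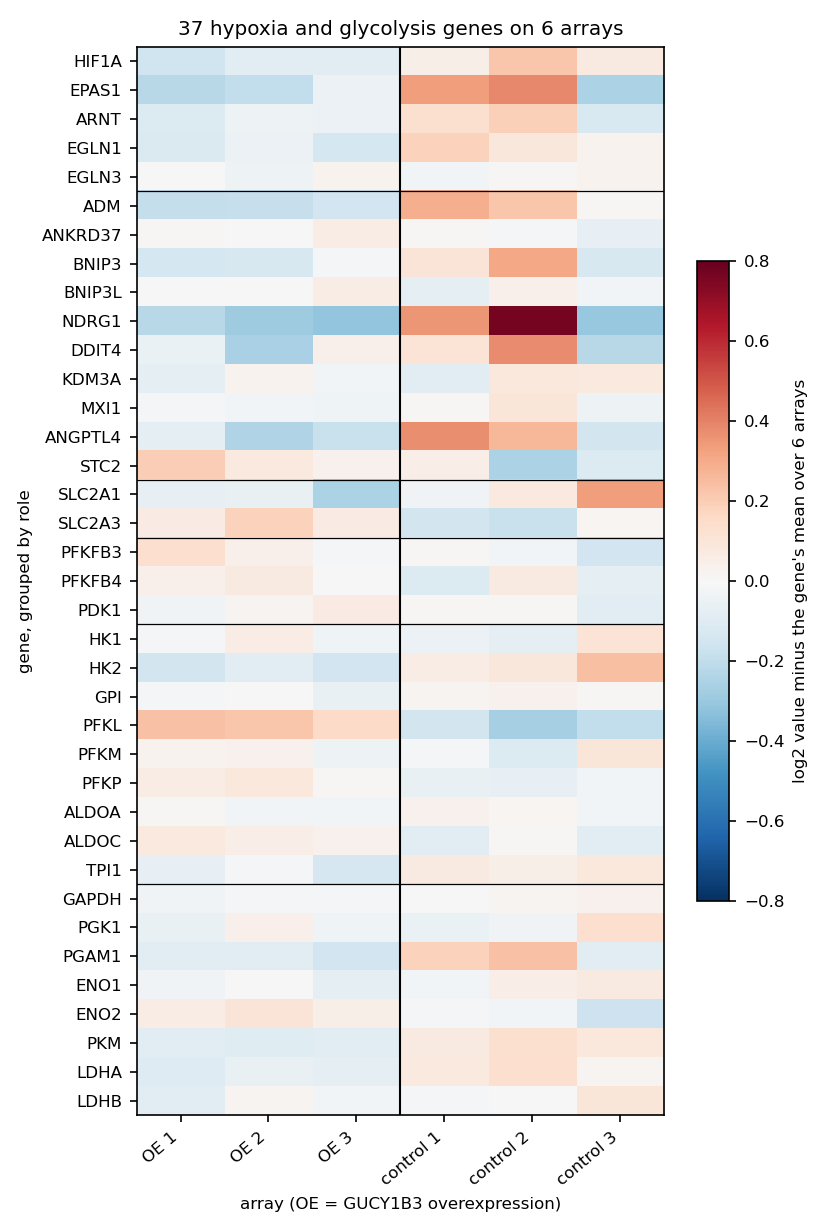
Expression of the 37 genes (rows, grouped by role) on the 6 arrays (columns, overexpression left of control), as the log2 value minus the gene's mean over the 6 arrays. Red is above and blue below that mean. In EPAS1, NDRG1 and ANGPTL4 control array 3 has the colour of the overexpression arrays, while PFKL is red on all 3 overexpression arrays and blue on all 3 control arrays.

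PFKL, the liver-type subunit of phosphofructokinase, catalyses the committed step of glycolysis. Its probe set on chromosome 21 (TC21000222.hg.1) read 8.47, 8.45 and 8.38 in overexpression cells, against 8.08, 7.97 and 8.04 in control cells. The groups did not overlap, and the gap between them was wider than the spread within either. The means were 8.44 ± 0.04 in overexpression and 8.03 ± 0.06 in control (SD, n = 3 each), a difference of 0.41 or 1.33-fold (95% interval 0.28 to 0.53, limma adjusted p = 0.00427). PFKL was the only member called in each of the 6 fits that left out 1 array (limma adjusted p between 0.00147 and 0.0318). Without overexpression arrays 1, 2 and 3 and control arrays 1 and 2, in that order, 2.11%, 1.96%, 2.73%, 3.56% and 4.28% of all genes were higher, and 1.36%, 1.67%, 1.88%, 2.91% and 3.04% lower.

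ADM encodes a vasodilator peptide hormone induced by HIF. It read 7.54, 7.54 and 7.57 in overexpression cells, against 8.02, 7.94 and 7.73 in control cells. The overexpression arrays lay within a narrow band below all controls, of which control array 3 was the nearest. The means were 7.55 ± 0.02 in overexpression and 7.90 ± 0.15 in control, so ADM fell 1.27-fold (difference -0.35, limma adjusted p = 0.0239).

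HK2, the inducible hexokinase that traps glucose as glucose 6-phosphate, read 7.47, 7.53 and 7.46 in overexpression cells, against 7.68, 7.71 and 7.86 in control cells. Here control array 3 was the farthest from overexpression. The means were 7.49 ± 0.04 in overexpression and 7.75 ± 0.10 in control, a fall of 1.20-fold (difference -0.26, limma adjusted p = 0.0350).

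PKM makes pyruvate and ATP in the last step of glycolysis. It read 11.34, 11.34 and 11.34 in overexpression cells, against 11.50, 11.56 and 11.52 in control cells. Its arrays agreed closely within each group, and the fall was the smallest of the 3, at 1.14-fold (11.34 ± 0.004 in overexpression and 11.53 ± 0.03 in control, difference -0.19, limma adjusted p = 0.0467). One probe set covers the gene, so its splice forms, which differ in enzyme regulation, were not separated.

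**Figure D2:**
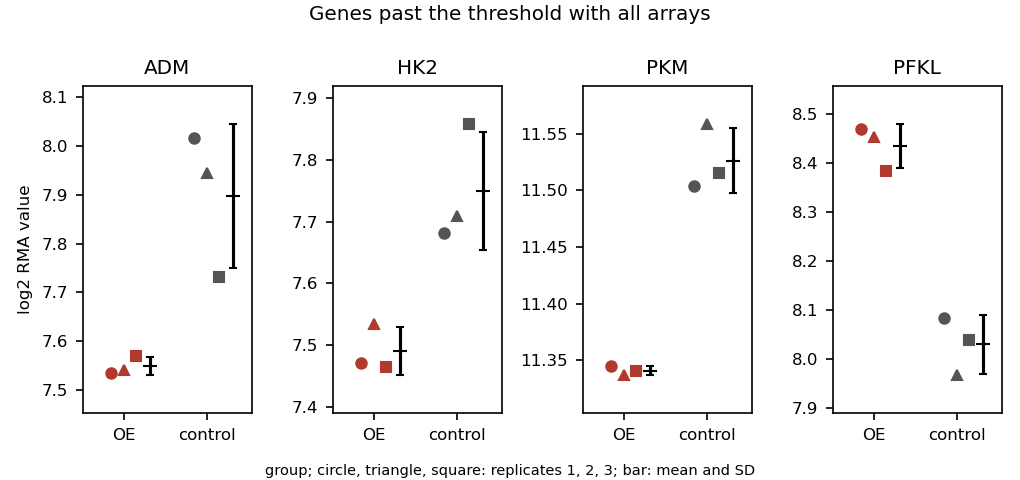
Log2 RMA values of ADM, HK2, PKM and PFKL on each array, overexpression (OE, red) left of control (grey), with mean and SD beside the points and an axis of its own for each gene. The groups do not overlap in any of the 4 panels, and PFKL is the one gene that lies higher in overexpression.

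The calls of ADM, HK2 and PKM were less stable than that of PFKL. Each was lost when any 1 array other than control array 3 was left out, with adjusted p up to 0.09996 for ADM, 0.135 for HK2 and 0.163 for PKM. An ordinary equal-variance test per gene, without limma's moderation, gave adjusted p values of 0.0391 for PFKL, 0.0322 for PKM, 0.137 for ADM and 0.122 for HK2.

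The HIF subunits and prolyl hydroxylases had 0 of 4 tested genes past limma's threshold with all arrays, and 0 by the ordinary test, 2 having an unadjusted p under 0.05, and each of the 4 had a difference below 0. HIF1A, the broadly expressed oxygen-labile alpha subunit, read 10.72, 10.80 and 10.79 in overexpression cells, against 10.93, 11.10 and 10.96 in control cells. The groups did not overlap, and the difference of -0.23 came close to the threshold (95% interval -0.37 to -0.08, adjusted p = 0.0555). EGLN1, the main prolyl hydroxylase, read 7.50, 7.57 and 7.47 in overexpression and 7.80, 7.71 and 7.64 in control, again without overlap (difference -0.20, adjusted p = 0.0709).

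EPAS1, which encodes the HIF-2 alpha subunit, read 9.58, 9.60 and 9.75 in overexpression cells, against 10.13, 10.19 and 9.55 in control cells. Control arrays 1 and 2 lay above every overexpression array, and control array 3 lay below them all (difference -0.31, adjusted p = 0.259). ARNT, the partner of both alpha subunits, had the same arrangement, with 7.41, 7.48 and 7.47 in overexpression against 7.65, 7.71 and 7.40 in control (difference -0.13, adjusted p = 0.397). EGLN3, a hydroxylase that HIF induces, lay below the array median on all 6 arrays, at 4.45, 4.41 and 4.47 in overexpression and 4.43, 4.46 and 4.48 in control. It was not tested, and without the filter on dim probe sets its adjusted p was 0.943.

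Of the 10 hypoxia-induced effectors, ADM alone passed the threshold, and 7 had a difference below 0. NDRG1, a stress-response and differentiation gene, had the largest difference of all members, -0.54 (95% interval -1.05 to -0.04, adjusted p = 0.166). It read 7.41, 7.35 and 7.32 in overexpression cells, against 7.98, 8.40 and 7.33 in control cells. Control array 3 thus lay within the overexpression range, while the other controls lay well above it. ANGPTL4, a secreted inhibitor of lipoprotein lipase, read 6.04, 5.87 and 5.93 in overexpression and 6.48, 6.37 and 5.96 in control (difference -0.33, adjusted p = 0.138). The mitophagy receptor BNIP3 read 7.98, 7.99 and 8.10 in overexpression and 8.22, 8.43 and 7.99 in control (difference -0.19, adjusted p = 0.310). DDIT4, an inhibitor of mTORC1, read 6.91, 6.71 and 7.01 in overexpression and 7.08, 7.35 and 6.75 in control (difference -0.18, adjusted p = 0.518). In ANGPTL4, BNIP3 and DDIT4 as well, control array 3 fell inside the range of the overexpression arrays.

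The other effectors differed little. ANKRD37, BNIP3L (the paralog of BNIP3), the histone demethylase KDM3A and the MYC antagonist MXI1 had differences between -0.05 and 0.04 and adjusted p values between 0.688 and 0.718. STC2, a secreted glycoprotein, went the other way, with 7.54, 7.42 and 7.38 in overexpression against 7.40, 7.09 and 7.24 in control (difference 0.20, adjusted p = 0.171). Its groups overlapped at their edges.

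The position of control array 3 ran through the HIF and hypoxia genes. It lay below both other controls in 10 of the 14 tested members of these groups and above both in 0, where 36.2% and 39.3% of all tested genes did so. Its median gap to the mean of control arrays 1 and 2 was -0.18 in these genes and 0.00 over all tested genes. Taking each gene against its own mean over the 6 arrays, the median of the 14 genes was -0.09, -0.07 and -0.04 in overexpression cells, against 0.11, 0.20 and -0.09 in control cells. By this median control array 3 resembled the overexpression arrays, but single genes varied. It lay within the overexpression range in NDRG1, ANGPTL4, BNIP3 and DDIT4, and above that range in HIF1A, EGLN1, ADM and KDM3A. In EPAS1, ARNT, ANKRD37, BNIP3L, MXI1 and STC2 it lay below the range. In the 22 transporters, regulators and enzymes control array 3 lay below both other controls in 7 and above both in 11. What set control array 3 apart was not tested.

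Left out of the fit, control array 3 changed the count. Then 13 of 36 members were lower and 2 higher, against 3 and 1 with all arrays. The background rose too, from 4.54% to 9.98% of all genes lower and from 6.39% to 13.0% higher. The 4 genes called with all arrays were among the called members. The others called lower were HIF1A, EPAS1, ARNT, EGLN1, BNIP3, NDRG1, DDIT4, ANGPTL4, PGAM1 and LDHA, and SLC2A3 was called higher. Without that array the difference was -0.83 for NDRG1 (adjusted p = 0.000636), -0.52 for EPAS1 (0.000758), -0.48 for ANGPTL4 (0.00108) and -0.43 for ADM (0.000703). For PFKL it was 0.41 with or without the array, and for SLC2A1 it moved towards 0, to -0.15 (adjusted p = 0.189). Leaving out control array 2 instead moved other differences towards 0. DDIT4 then had a difference of -0.03 (adjusted p = 0.936), ARNT one of -0.07, BNIP3 one of -0.08, EPAS1 one of -0.20 and NDRG1 one of -0.30 (adjusted p between 0.354 and 0.765). DDIT4 also moved to -0.10 without overexpression array 2. With all 6 arrays weighted by their scatter, EPAS1 (-0.40, limma adjusted p = 0.0218), NDRG1 (-0.69, 0.00699) and ANGPTL4 (-0.44, 0.00676) were called lower. HIF1A, EGLN1, PGAM1 and LDHA were also called lower and SLC2A3 higher (adjusted p between 0.00958 and 0.0370). ARNT, BNIP3 and DDIT4 were not called (adjusted p between 0.0672 and 0.240). In that fit 1842 of all 15800 genes were higher and 1398 lower. Control array 3 had the lowest weight there, 0.30, so the fit is not independent of leaving that array out. An array picked out after its values were seen gives no independent evidence for either count.

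**Figure D3:**
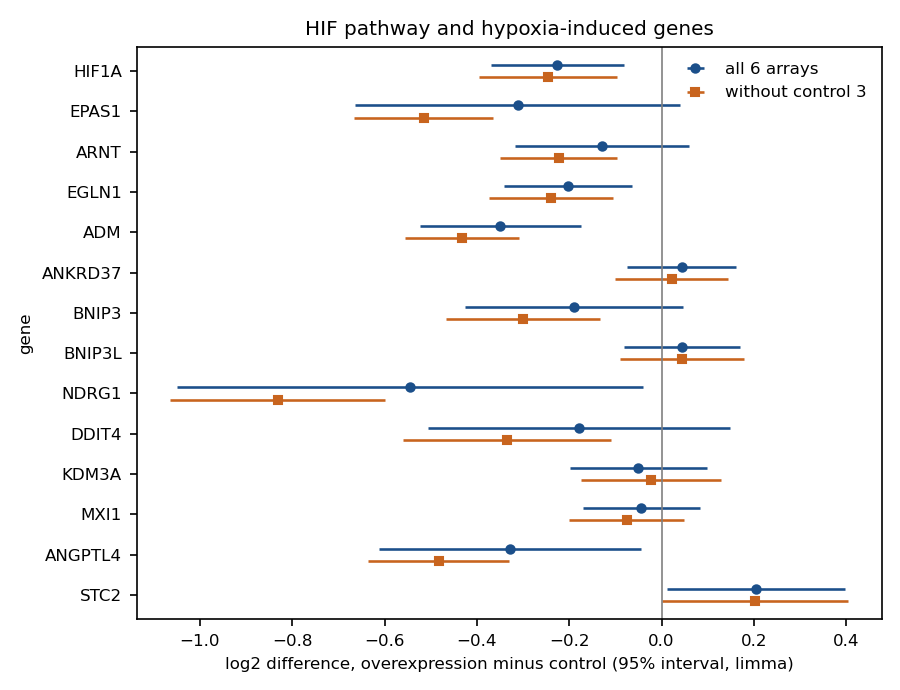
Differences (overexpression minus control, log2) of the 14 tested HIF and hypoxia-induced genes with 95% intervals from limma, for all 6 arrays (circles) and without control array 3 (squares). Without that array the interval narrows and moves further below 0 for EPAS1, NDRG1, DDIT4, BNIP3 and ANGPTL4, and it hardly moves for ANKRD37, BNIP3L and STC2.

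**Figure D4:**
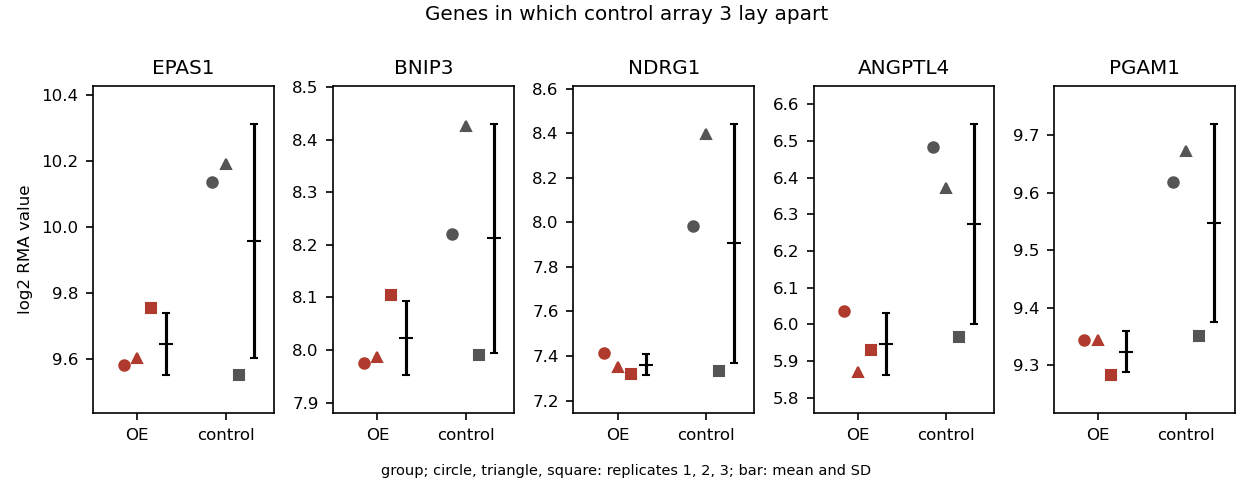
Log2 RMA values of 5 genes on each array, overexpression (OE, red) left of control (grey), with mean and SD and an axis of its own for each gene. The genes were chosen because control array 3 lay apart from the other controls, so the likeness of the panels follows from that choice. Control array 3 (grey square) lies within or next to the overexpression values in all 5 panels, while control arrays 1 and 2 lie above them.

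The 2 glucose transporters measured had differences of opposite sign, and neither passed the threshold. SLC2A1 (GLUT1), the widespread glucose transporter induced by HIF, read 8.45, 8.45 and 8.26 in overexpression cells, against 8.48, 8.59 and 8.85 in control cells (difference -0.26, adjusted p = 0.150). SLC2A3 (GLUT3), the neuronal high-affinity transporter, read 8.03, 8.15 and 8.04 in overexpression and 7.82, 7.79 and 7.98 in control (difference 0.21, adjusted p = 0.0929). In both, the groups were separate. PFKFB3 and PFKFB4, which make the activator of phosphofructokinase, and PDK1, which shuts pyruvate out of the citric acid cycle, had differences between 0.04 and 0.11. Their adjusted p values lay between 0.369 and 0.726. PFKFB3, the largest of the 3, read 7.33, 7.23 and 7.17 in overexpression and 7.20, 7.17 and 7.04 in control, with overlap between the groups.

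Among the 9 enzymes of the upper part of glycolysis, PFKL was higher and HK2 lower, and 7 did not pass. The constitutive hexokinase HK1 had a difference of 0.01 (95% interval -0.14 to 0.16), and the muscle-type subunit PFKM one of 0.01 (-0.13 to 0.16). The platelet-type subunit PFKP read 9.62, 9.64 and 9.57 in overexpression and 9.50, 9.49 and 9.54 in control, a small separation that did not pass (difference 0.10, adjusted p = 0.286). GPI and the aldolase ALDOA had differences of -0.04 and -0.02. The brain-type aldolase ALDOC had a difference of 0.11 and TPI1, which interconverts the triose phosphates, one of -0.14, with adjusted p values of 0.249 and 0.160.

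Among the 8 enzymes of its lower part, PKM alone passed. PGAM1, phosphoglycerate mutase, read 9.34, 9.34 and 9.28 in overexpression cells, against 9.62, 9.67 and 9.35 in control cells. Control array 3 lay just above the overexpression arrays, far from the other controls (difference -0.22, adjusted p = 0.140). LDHA, the lactate dehydrogenase subunit favoured under hypoxia, read 8.62, 8.67 and 8.65 in overexpression and 8.80, 8.86 and 8.75 in control, without overlap (difference -0.16, adjusted p = 0.105). For LDHB the difference was -0.06 (95% interval -0.19 to 0.08). GAPDH, often used as a reference gene, had a difference of -0.04 (-0.15 to 0.07), PGK1 one of -0.03 (-0.18 to 0.12) and ENO1 one of -0.07 (-0.19 to 0.06). The neuronal enolase ENO2 lay higher on all overexpression arrays (9.20, 9.24 and 9.18 against 9.12, 9.11 and 8.97 in control), but the difference of 0.14 did not pass (adjusted p = 0.196). GAPDH, PGK1, PGAM1 and others have processed copies of like sequence in the genome, so part of their signal may not come from the named gene.

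**Figure D5:**
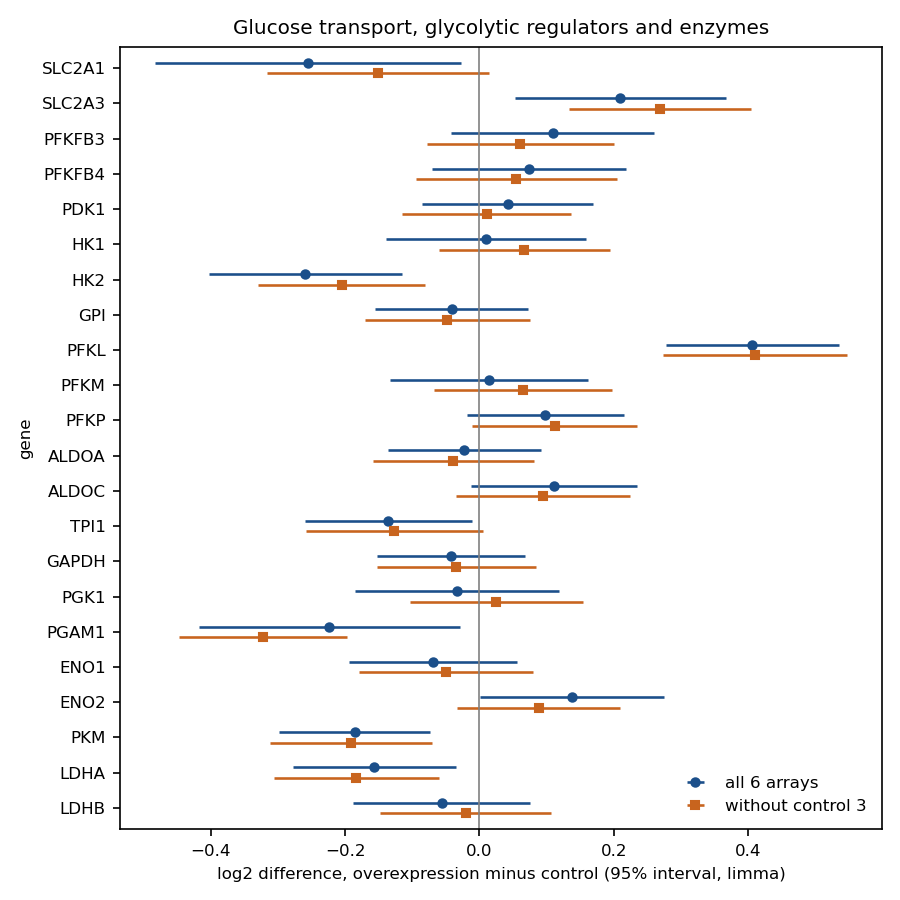
Differences (overexpression minus control, log2) of the 22 tested transporters, regulators and enzymes, grouped by role in that order from the top, with 95% intervals from limma, for all 6 arrays (circles) and without control array 3 (squares). PFKL lies furthest to the right under both settings, HK2 and PKM lie left of 0, and the remaining intervals with all arrays cross 0 or end near it.

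Paralogs that share a step could be set against each other within each array. In 7 of 11 pairs the change of one relative to the other left the groups without overlap. Of single tested genes 29.2% did so, no such share was computed for other gene pairs, and nothing about paralogs as a class is read from the count. PFKL gained 0.39 on PFKM and 0.31 on PFKP, HK2 changed by -0.27 relative to HK1, and SLC2A3 gained 0.47 on SLC2A1. ENO2 gained 0.21 on ENO1, ALDOC 0.13 on ALDOA, and EGLN3, which is dim, 0.19 on EGLN1. Each of these gave an exact two-sided permutation p of 0.1, the smallest that 3 arrays against 3 allow, and 0.157 after adjustment over the 11 pairs, so no pair could pass 0.05. LDHA against LDHB, PFKFB4 against PFKFB3, EPAS1 against HIF1A and BNIP3L against BNIP3 overlapped between groups (exact permutation p between 0.2 and 0.7).

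Related genes outside the list were read from 5 further lists. Over the 85 tested genes of these lists 5.88% were higher and 9.41% lower, beside 6.39% and 4.54% of all tested genes. Of 12 tested HIF subunits and regulators 0 were higher and 2 lower. ELOC, a component of the VHL ubiquitin ligase, read 7.39, 7.47 and 7.45 in overexpression and 7.65, 7.69 and 7.65 in control (difference -0.23, adjusted p = 0.0275), and CREBBP, a coactivator of HIF, had a difference of -0.27 (adjusted p = 0.0305). Of 35 other hypoxia-induced genes 2 were higher and 5 lower, with a median of -0.06. CA12, a carbonic anhydrase at the cell surface, read 6.68, 6.81 and 6.84 in overexpression and 8.28, 8.33 and 8.11 in control, 2.77-fold lower (adjusted p = 7.98e-05). The nuclear receptor RORA was 1.65-fold lower, the transcriptional repressor BHLHE41 1.41-fold lower, and WSB1, a ubiquitin ligase subunit, 1.27-fold higher (adjusted p = 0.00523, 0.0263 and 0.0170). Without control array 3 this list had 5 genes higher and 13 lower, while the shares of all tested genes called also increased, to 13.0% higher and 9.98% lower.

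Among 20 tested further glycolytic, gluconeogenic and glucose transport genes 2 were higher and 1 lower. PFKFB2, a relative of PFKFB3, read 6.48, 6.62 and 6.43 in overexpression and 5.95, 5.88 and 6.19 in control (difference 0.50, adjusted p = 0.0112), and HKDC1, a hexokinase-like gene, rose 1.38-fold (adjusted p = 0.00239). PGAM4, whose sequence is nearly that of PGAM1, fell 1.34-fold (adjusted p = 0.0194), and the assignment of that signal to either gene is uncertain. Of 12 tested genes of pyruvate entry to mitochondria 0 passed limma's threshold or the ordinary test, 2 having an unadjusted p under 0.05. The pyruvate carrier MPC1 had the smallest p (difference 0.29, adjusted p = 0.0677). Of 6 tested pentose phosphate genes 1, RPIA, was higher (difference 0.30, adjusted p = 0.0435) and 0 were lower. Of the genes named from these lists, CA12, RORA and HKDC1 were called with any 1 array left out. ELOC, CREBBP, BHLHE41, WSB1, PFKFB2, PGAM4 and RPIA each lost the call in at least 1 such fit. The ordinary equal-variance test called CA12, HKDC1 and ELOC (adjusted p = 0.0248, 0.0322 and 0.0495). RORA (0.0897) and the rest of these genes did not pass that test.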

How the data were processed

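The deposited table holds log2 values of 70523 features on 6 one-colour Affymetrix arrays, made by the authors with RMA in Affymetrix Expression Console, per the sample descriptions and the submitters' processing notes. Software version, library files and array build are not given in the sources used here, and scanner files and detection calls were not used. The number of arrays limits the precision. The platform annotation gave 1 symbol for 23781 probe sets, several for 1543 and none for 45199 features. Symbols were updated through RefSeq (GRCh38.p14), and Y-linked genes were left out.

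The probe set with the highest mean stood for each gene. Genes above the array median on at least 3 of 6 arrays were tested with limma 3.58.1 in R 4.3.3 (lmFit and eBayes, no covariate), with Benjamini-Hochberg adjustment over all 15800 and a threshold of 0.05. The procedure was tested on simulated data. The members and lists were chosen with earlier results of these data known. Values on every array are given for members past the threshold with all arrays or without any 1 array, for the HIF subunits and hydroxylases and for the largest difference per role. Further lists name up to 4 called genes, or the smallest p. ENO2, PFKP and STC2 were added after their values were seen, as was ALDOC, for which no array values are given. Pairs were tested by exact permutation. Promoter windows came from RefSeq. Python 3.11.15, pandas 2.3.3 and matplotlib 3.10.9 were used for tables and figures.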

Additional observations from a re-analysis of the deposited data

How the results depend on the processing

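The differences of the tested members and list genes named by the rule kept their direction under all 17 alternatives that gave a value (EGLN3, which was too dim to be tested, was not among them), as did the separate pairs with 1 array left out, and the median difference of the members moved by less than the spread between array medians. PFKL was called under each alternative. Counts moved more. An ordinary equal-variance test left 1 member higher and 1 lower, 1 and 3 genes of the further lists, and 246 and 170 of all genes. Array weights gave 2 members higher and 10 lower, 8 and 15 genes of the further lists, and 1842 and 1398 of all genes. With the replicate block, 1 member was higher and 0 lower (ADM, HK2 and PKM had adjusted p = 0.0600, 0.0788 and 0.0940), 3 and 5 genes of the further lists, and 589 and 439 of all genes. The replicate numbers share no source in the labels. Deviations of same-numbered arrays from their group means correlated at 0.28, -0.10 and -0.24. Deviations within a group of 3 arrays depend on each other, so these values cannot settle whether the numbers pair the arrays. Leaving out each array in turn gave 1 to 2 members higher and 0 to 13 lower, 1 to 10 genes of the further lists higher and 3 to 18 lower, and 309 to 2050 of all genes higher and 215 to 1577 lower. The ends at 13, 10, 18, 2050 and 1577 came without control array 3. Median differences of the members lay between -0.07 and -0.04 without 1 array. PKM was not called after cyclic loess (adjusted p = 0.0851) or quantile normalization of the tested genes (0.0735), and RPIA was not called without the filter on dim probe sets or under any of the 3 further normalizations (adjusted p between 0.0511 and 0.0586). The motif share of 68.3% fell to 38.3% for ACGTG alone and 45.0% for GCGTG alone, which are parts of it. Without scanner files, signal over background was not assessed.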
